A study of Homo sapiens with 9 samples.

Results

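The 10 genes examined belong to the inflammatory output of epithelial cells and were chosen by name from the 58735 genes measured in HCT116, a widely used cell line from a human colorectal carcinoma. They were CXCL1, CXCL2, CXCL3, CXCL8, CXCL16 and CCL20, which encode chemokines, TNF, IL18 and LIF, which encode cytokines, and ICAM1, which encodes an adhesion molecule. Bulk RNA-seq was done on 3 groups of cells with 3 libraries each. The labels call the groups A20-WT, A20-KO and A20-OE. A20-KO cells were made with single-guide RNAs against A20 in the LentiCRISPR v2 lentiviral vector, and A20-OE is the group described in the study as A20-KO cells in which A20 was restored, so that by this description both groups went through the knockout and the restoring vector was added in A20-OE alone. The methods list a CMV-driven, Flag-tagged A20 vector, and no source used here says whether either line was 1 clone or a pool. No cytokine or other stimulus is named for these libraries. The comparisons ask how the mRNA of the 10 genes differed when A20 was targeted and when an A20 vector was added.

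A20, the product of TNFAIP3, is an enzyme that edits ubiquitin chains and restrains signalling from the TNF receptor and from innate immune receptors to the transcription factor NF-kB. NF-kB drives the genes for many chemokines and cytokines, ICAM1 and A20 itself, so that A20 is a feedback inhibitor of the pathway that induces it. In the gut, chemokines released by epithelial cells draw in leukocytes: CXCL1, CXCL2, CXCL3 and CXCL8 attract neutrophils through CXCR1 and CXCR2, CXCL16 is a membrane-bound chemokine for CXCR6, and CCL20 acts on CCR6. IL18 encodes a cytokine stored as a precursor that inflammatory caspases cleave, LIF a cytokine of the IL-6 family, and ICAM1 the surface ligand of leukocyte integrins.

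The sequences below are shown because the 4 neutrophil chemokines, which lie close together on chromosome 4, were not all called in the same comparison, and because ICAM1 changed in another comparison. Each is a run of 30 bases around a match to GGNNTTTCC, a short form of the NF-kB motif that was searched on both strands, in the 300 bases that RefSeq gives around a gene's start (250 before and 50 after) on GRCh38.p14. They are written 5′ to 3′ on the strand of the gene, and capitals mark the match. For ICAM1 the match is on the opposite strand, so that the printed letters are its reverse complement.
CXCL1, chr4:73869305-73869334, plus strand: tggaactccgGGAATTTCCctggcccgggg
CXCL2, chr4:74099253-74099282, minus strand: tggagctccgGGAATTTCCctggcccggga
CXCL3, chr4:74038748-74038777, minus strand: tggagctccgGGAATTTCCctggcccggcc
CXCL8, chr4:73740468-73740497, plus strand: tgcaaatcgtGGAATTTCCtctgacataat
CXCL1, chr4:73869330-73869359, plus strand: cgggggctccGGGCTTTCCagccccaacca
CXCL2, chr4:74099229-74099258, minus strand: ccgggactccGGGCTTTCCagccccaacca
CXCL3, chr4:74038723-74038752, minus strand: cggccgctccGGGCTTTCCagtctcaacca
ICAM1, chr19:10270924-10270953, plus strand: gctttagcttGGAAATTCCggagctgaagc

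CXCL1, CXCL2, CXCL3 and CXCL8 held the same 9 letters, GGAATTTCC, and the first 3 of them shared a second match 45 to 53 bases before the start. Of the 7 members present in the RefSeq table, 6 held at least 1 match, and TNF held none. Of the 35116 promoters of the same length in that table, 6.26% held at least 1. The members were chosen by name among kinds of genes that NF-kB drives, so that this difference is no test of enrichment. The promoters of CXCL1, CXCL2 and CXCL3 are also alike, with 71.9% to 82.5% of aligned bases identical between pairs. CXCL1, CXCL2 and CXCL3 held 2 matches each, as did 0.296% of all promoters (2 or more). The match of CCL20 was at chr2:227813753-227813782. CXCL16, IL18 and LIF were not matched in the table. The windows of CXCL1 and CXCL8 lay outside the gene models of the deposited table, those of CXCL2, CXCL3 and ICAM1 lay in exons of their own genes there, whose models begin further upstream than in RefSeq, and that of CCL20 lay in an intron. A match is a stretch of letters only, and no binding was measured. CXCL1, CXCL2 and CXCL3 are also near-copies in their coding sequences: 93.5% of aligned bases were identical between CXCL1 and CXCL2, 90.7% between CXCL1 and CXCL3, and 94.4% between CXCL2 and CXCL3, whereas each was 53.6% to 55.8% identical to CXCL8. At the length of a 100-base window, 5% of the windows of CXCL2 transcripts and 3.27% of those of CXCL3 transcripts also occurred in the other gene. The reads were longer than this window and paired, and how many of them could be assigned to either gene was not measured. CXCL1 and CXCL8 had no such window.

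The libraries held 23406222 to 24963691 reads on genes, and the ranges of the groups overlapped. The share of reads on mitochondrial genes was 8.79% ± 1.3 (SD, n = 3) in A20-WT, 10.4% ± 1.36 in A20-KO and 12.7% ± 1.07 in A20-OE, and the part of this difference in the results below was not tested. The values are FPKM, that is fragments mapped to a gene, scaled by its length and by the depth of the library, from which whole reads could be recovered. Reads of this kind are not independent molecules, so that read counts carry more than counting error. No source states that the 3 libraries of a group came from separate cultures, so that p-values measure the spread between these libraries. In bulk RNA, fewer cells expressing a gene and less RNA per cell cannot be told apart.

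The targeted gene was checked first. TNFAIP3 mRNA was 0.869, 0.8 and 0.736 FPKM in the A20-WT libraries, 1.93, 2.16 and 1.04 FPKM in libraries labelled A20-KO, and 58.7, 66.5 and 56.5 FPKM in A20-OE. Libraries labelled A20-KO were therefore not low in TNFAIP3 mRNA but lay above all A20-WT libraries, with a log2 fold change of 0.95 (SE 0.23, adjusted p = 0.018 in limma), and the loss of A20 cannot be read from these values. Without A20-KO library 3, the lowest of its group, this log2 fold change was 1.25 (adjusted p = 0.0012 in limma). These are mRNA values and give no level of A20 protein. The study shows A20 expression in its knockout and rescue cells in a figure of its own, which was not examined here. A20-OE stood far above both, at a log2 fold change of 5.13 over libraries labelled A20-KO (SE 0.23, adjusted p = 2.1e-05 in limma) and of 6.07 over A20-WT (adjusted p = 2e-06 in limma). All fold changes were taken after adding 0.1 to the FPKM, which makes those of low genes too small.

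The 10 genes fell into 3 tiers of expression, compared here per length as FPKM. CXCL16, LIF and IL18 were well expressed, at means of 23.6 ± 2.61, 20.6 ± 3.72 and 18.8 ± 6.26 FPKM (SD, n = 3) in A20-WT, and their libraries overlapped, so that this order is not resolved. ICAM1 (2.25 ± 0.515 FPKM), CXCL8 (1.26 ± 0.0612 FPKM), CXCL1 (1.11 ± 0.346 FPKM), CXCL2 (0.632 ± 0.118 FPKM) and CXCL3 (0.313 ± 0.00977 FPKM) formed a low tier, in which only CXCL8 and CXCL1 overlapped as neighbours in A20-WT. CCL20 and TNF were at or near 0. The order within the top tier changed between groups: LIF led in libraries labelled A20-KO at 31.3 ± 1.72 FPKM, with CXCL16 at 27.3 ± 0.523 and IL18 at 24.1 ± 2.3 FPKM, and no library of these overlapped with that of the next gene. In A20-OE, IL18 (35.4 ± 4.07 FPKM) and CXCL16 (31.3 ± 1.58 FPKM) overlapped and LIF was below both at 20.2 ± 0.608 FPKM. In the low tier of A20-OE, ICAM1, CXCL8, CXCL1, CXCL2 and CXCL3 lay within 0.678 to 0.446 FPKM on average and each overlapped with the next.

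**Figure D1:**
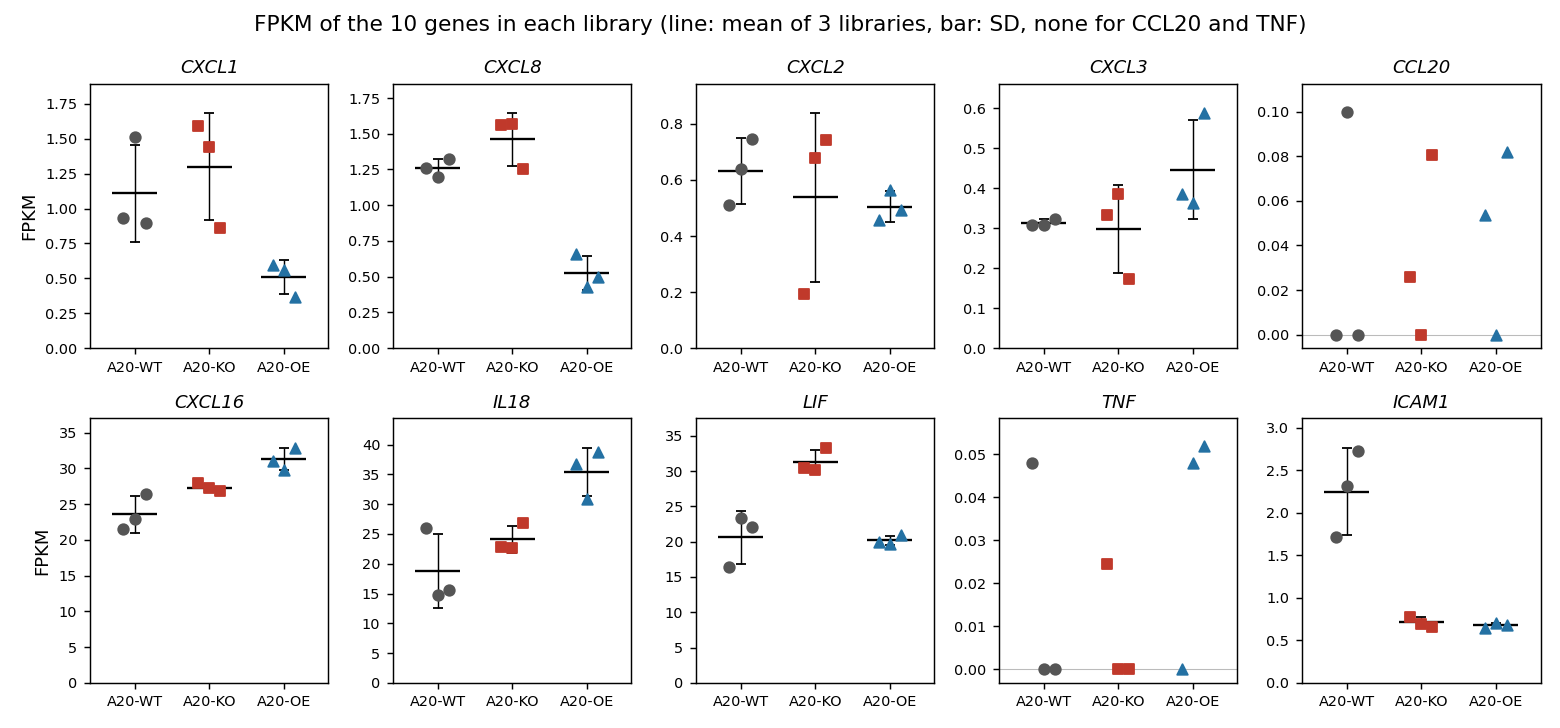
FPKM of each of the 10 genes in each library, with 1 panel per gene and its own vertical axis, the 3 groups along the horizontal axis, points for libraries, lines for the mean of 3 libraries and bars for the SD (neither is drawn for CCL20 and TNF). The A20-OE points lie below all others for CXCL1 and CXCL8, the A20-WT points lie above all others for ICAM1, and the A20-KO points lie above all others for LIF.

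The 3 comparisons shared libraries: A20-KO entered the first and the second, A20-OE the second and the third, and A20-WT the first and the third, so that their values are given side by side and are not independent. Called genes had a limma p under 0.05 after Benjamini-Hochberg adjustment over all 21636 genes tested and a log2 fold change above 1 in either direction. Of the 10 genes 8 passed the filter on a mean of 0.1 FPKM, and CCL20 and TNF did not. From A20-WT to libraries labelled A20-KO, 1 of the 8 was called, ICAM1, which fell. The background was 6.99% of all tested genes, and 2.08% called lower, so that 1 of 8 is no result about the group of genes. Groups did not overlap for 3 of the 8, against 38.1% of all tested genes. From libraries labelled A20-KO to A20-OE, CXCL1 and CXCL8 fell, 2 of the 8, against a background of 2.39% called and 0.832% called lower. Here 5 of the 8 did not overlap, against 35.4% of all tested genes. From A20-WT to A20-OE, CXCL8 and ICAM1 fell, 2 of the 8, against 11.9% called and 4.21% called lower, and 6 of the 8 did not overlap, against 45.3% of all tested genes. None of the 8 was called higher in limma in any comparison, against 4.91%, 1.56% and 7.68% of all tested genes. By adjusted p alone, 2 of the 8 passed in the first comparison, LIF higher and ICAM1 lower, against 22.3% of all tested genes (11.3% higher and 11.0% lower). In the second, CXCL1, CXCL8 and LIF, 3 of the 8, were lower, against 8.97% of genes passing and 4.54% lower. In the third, 5 of the 8 passed, CXCL16 and IL18 higher and CXCL1, CXCL8 and ICAM1 lower, against 31.1% of all tested genes (15.7% higher and 15.4% lower). The median log2 fold change of the 8 was 0.20 in the first comparison, 0.00 in the second and -0.14 in the third, beside -0.01, 0.01 and 0.03 over all tested genes.

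**Figure D2:**
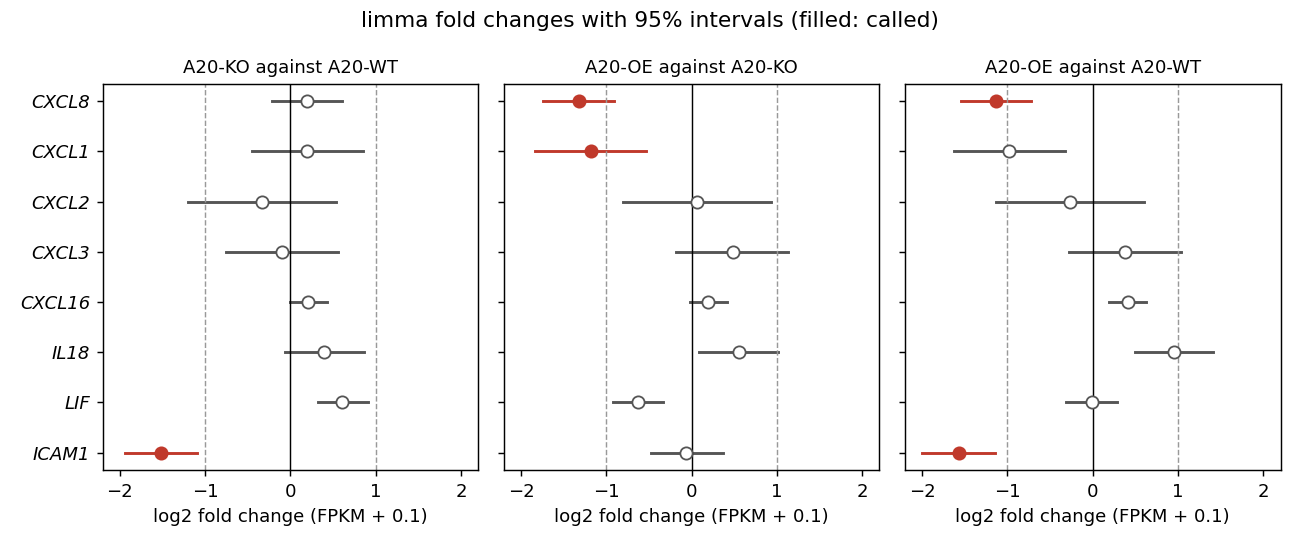
Log2 fold changes of the 8 tested genes on the log2(FPKM + 0.1) scale (horizontal axis), 1 panel per comparison, with 95% intervals from limma as lines, filled red points for called genes and dashed lines at the fold threshold. ICAM1 is called lower against A20-WT in both groups, and CXCL8 is called lower in A20-OE against both other groups.

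Among the neutrophil chemokines, CXCL8 and CXCL1 were the lower ones in A20-OE. CXCL8 and CXCL1 fell from libraries labelled A20-KO to A20-OE, to 0.361 and 0.391 of the mean FPKM, and neither differed between A20-WT and libraries labelled A20-KO beyond the spread between libraries. CXCL2 and CXCL3 passed the test in no comparison, and whether they differed from the other pair was not tested.

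CXCL8 (ENSG00000169429, chr4:73740506-73743716, plus strand) encodes interleukin-8, the main human neutrophil attractant. It had 71, 68 and 75 reads in the A20-WT libraries, 86, 88 and 66 in those labelled A20-KO, against 35, 24 and 26 in A20-OE. All 3 A20-OE libraries lay under every other library, while A20-WT and A20-KO overlapped. A20-OE against A20-KO gave a log2 fold change of -1.32 (SE 0.18, 95% interval -1.74 to -0.91, adjusted p = 0.0051 in limma), a 2.77-fold lower mean FPKM. Against A20-WT it was -1.13 (95% interval -1.54 to -0.72, adjusted p = 0.0017 in limma), 2.39-fold lower. Between libraries labelled A20-KO and A20-WT it was 0.19 (95% interval -0.22 to 0.61, adjusted p = 0.5 in limma). With a pseudocount of 1 in place of 0.1 the log2 fold changes of A20-OE were -0.69 against A20-KO and -0.57 against A20-WT, under the fold threshold, with adjusted p = 0.005 and 0.0022 in limma.

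CXCL1 (ENSG00000163739, chr4:73869393-73871242, plus strand) encodes GRO-alpha, a ligand of CXCR2. It had 30, 49 and 29 reads in A20-WT, 50, 46 and 26 in libraries labelled A20-KO, against 18, 18 and 11 in A20-OE. Again all 3 A20-OE libraries were the lowest of the 9, and A20-KO library 3 was close to the A20-WT libraries. The log2 fold change of A20-OE against A20-KO was -1.18 (SE 0.29, 95% interval -1.83 to -0.53, adjusted p = 0.039 in limma), a 2.56-fold lower mean FPKM. This call rested on few reads. It was lost without any 1 of A20-KO libraries 1 and 2 and A20-OE libraries 1, 2 and 3, with adjusted p = 0.13, 0.096, 0.092, 0.1 and 0.11 in limma, and with no filter on low genes, with adjusted p = 0.076. Against A20-WT the log2 fold change was -0.98 (SE 0.29, adjusted p = 0.029 in limma), just under the fold threshold.

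CXCL2 (ENSG00000081041, chr4:74097035-74099293, minus strand) had 19, 24 and 28 reads in A20-WT, 7, 25 and 26 in libraries labelled A20-KO, against 16, 21 and 17 in A20-OE. The 3 groups overlapped, and A20-KO library 1, at 7 reads, was the lowest of all. The log2 fold change of A20-OE against A20-KO was 0.06 (95% interval -0.80 to 0.93, adjusted p = 0.94 in limma), and without that library it was -0.43 (adjusted p = 0.35 in limma), so that its sign rested on 1 library. CXCL3 (ENSG00000163734, chr4:74036589-74038807, minus strand) had 17, 17 and 18 reads in A20-WT, 18, 21 and 9 in libraries labelled A20-KO, against 20, 20 and 30 in A20-OE. Here the A20-OE libraries were above those of A20-WT, and the log2 fold change of A20-OE was 0.48 against A20-KO (95% interval -0.18 to 1.13, adjusted p = 0.35 in limma) and 0.38 against A20-WT (adjusted p = 0.37 in limma). With intervals this wide, small changes of either gene were not detectable at this depth.

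Summed over the 4 genes, a sum chosen after the values were seen, the neutrophil chemokines had 137, 158 and 150 reads in A20-WT, 161, 180 and 127 in libraries labelled A20-KO, against 89, 83 and 84 in A20-OE. CXCL1 and CXCL8 made up 73.7%, 74.1% and 69.3% of these reads in A20-WT and 84.5%, 74.4% and 72.4% in libraries labelled A20-KO. In A20-OE they made up 59.6%, 50.6% and 44%, and the rest was CXCL2 and CXCL3. CXCL1 and CXCL8 were paired as the members called lower in A20-OE against A20-KO, so that their lower share there adds no evidence. Of CXCL1, CXCL2 and CXCL3, only CXCL1 was called in A20-OE against A20-KO, on few reads. Whether these 3 genes differed from one another was not tested, and neither was any part of the promoter motifs in their values.

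ICAM1 was the member that differed most between groups, and it was lower in both other groups than in A20-WT. ICAM1 (ENSG00000090339, chr19:10270835-10286615, plus strand) had 157, 215 and 253 reads in A20-WT, 70, 63 and 57 in libraries labelled A20-KO, against 56, 65 and 58 in A20-OE. All A20-WT libraries were above all others, and the other groups overlapped. For A20-KO against A20-WT the log2 fold change was -1.52 (SE 0.19, 95% interval -1.94 to -1.09, adjusted p = 0.00093 in limma), a 3.18-fold lower mean FPKM. That of A20-OE against A20-WT was -1.57 (SE 0.19, adjusted p = 0.00035 in limma), 3.32-fold lower. From A20-KO to A20-OE it was -0.06 (95% interval -0.48 to 0.37, adjusted p = 0.89 in limma). Both called values held in every fit that left out a library, and went to -0.92 and -0.94 with a pseudocount of 1. Of the exonic bases of ICAM1, 22% overlap AC011511.5, a gene on the opposite strand, and it is not stated whether reads were counted by strand. AC011511.5 had 0 to 2 reads in every library.

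The 5 genes with the pattern most like that of ICAM1, by Pearson correlation of log2(FPKM + 0.1) over the 9 libraries among 12796 genes with a mean of at least 1 FPKM, were TANGO6 (r = 0.993), NOLC1 (r = 0.991), PFAS (r = 0.990), E2F2 (r = 0.989) and PDCD11 (r = 0.987). These libraries share their groups and depth, so that the values are a description. PFAS, an enzyme of purine synthesis, went from 14.8 ± 2.01 FPKM (SD, n = 3) in A20-WT to 6.84 ± 0.426 in libraries labelled A20-KO and 5.9 ± 0.26 in A20-OE. E2F2, a transcription factor of the cell cycle, went from 11 ± 1.9 FPKM to 4.32 ± 0.216 and 3.51 ± 0.0696. The nucleolar proteins NOLC1 and PDCD11 showed smaller differences, with means of 135, 76.6 and 77.1 FPKM and of 34.3, 21.8 and 20.9 FPKM in the same order, and TANGO6 had 3.18, 2.07 and 2.08 FPKM.

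LIF, IL18 and CXCL16 were the members with the most reads, and each differed by less than the fold threshold. More reads did not always mean more precision. In A20-OE against A20-WT the SE of IL18 was 0.20, beside 0.18 for CXCL8 and 0.19 for ICAM1. LIF was highest in libraries labelled A20-KO, IL18 and CXCL16 in A20-OE. LIF (ENSG00000128342, chr22:30240447-30246851, minus strand), which keeps stem cells undifferentiated in culture and signals through LIFR and gp130, had 1615, 2318 and 2193 reads in A20-WT, 2943, 2936 and 3076 in libraries labelled A20-KO, against 1854, 1942 and 1904 in A20-OE. The A20-KO libraries were above all others, and A20-OE lay within the range of A20-WT. A20-KO exceeded A20-WT by a log2 fold change of 0.61 (SE 0.13, 95% interval 0.32 to 0.91, adjusted p = 0.01 in limma), a 1.52-fold higher mean FPKM. From A20-KO to A20-OE it was -0.63 (95% interval -0.92 to -0.33, adjusted p = 0.023 in limma), 1.55-fold lower. A20-OE against A20-WT gave -0.01 (95% interval -0.31 to 0.28, adjusted p = 0.95 in limma). The second value missed an adjusted p of 0.05 without any 1 of A20-KO libraries 1 and 3 and A20-OE libraries 1, 2 and 3 (0.071, 0.071, 0.089, 0.087 and 0.058 in limma).

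IL18 (ENSG00000150782, chr11:112143251-112164117, minus strand) had 1696, 970 and 1025 reads in A20-WT, 1459, 1466 and 1639 in libraries labelled A20-KO, against 2256, 2011 and 2334 in A20-OE. A20-OE was above every other library, and A20-WT library 1 stood apart from the rest of its group, among the A20-KO libraries. A20-OE exceeded A20-WT by a log2 fold change of 0.95 (SE 0.20, 95% interval 0.49 to 1.41, adjusted p = 0.0068 in limma), a 1.88-fold higher mean FPKM. Without A20-WT library 1 it was 1.21 (adjusted p = 0.00026) and without A20-OE library 2 it was 1.05 (adjusted p = 0.014 in limma), both past the fold threshold. A20-KO against A20-WT gave 0.40 (95% interval -0.06 to 0.86, adjusted p = 0.19 in limma), and 0.66 without A20-WT library 1 (adjusted p = 0.0074 in limma). A20-OE against A20-KO gave 0.55 (95% interval 0.09 to 1.01, adjusted p = 0.13 in limma).

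CXCL16 (ENSG00000161921, chr17:4733526-4739922, minus strand), which also acts as a scavenger receptor at the cell surface, had 1490, 1599 and 1854 reads in A20-WT, 1892, 1865 and 1748 in libraries labelled A20-KO, against 2028, 2065 and 2114 in A20-OE. In FPKM the groups did not overlap, with A20-WT at 21.5 to 26.5, libraries labelled A20-KO at 26.8 to 27.9 and A20-OE at 29.8 to 32.9 FPKM. The steps were small. A20-OE exceeded A20-WT by a log2 fold change of 0.41 (SE 0.10, 95% interval 0.19 to 0.62, adjusted p = 0.011 in limma), a 1.32-fold higher mean FPKM, while A20-KO against A20-WT gave 0.21 (adjusted p = 0.15 in limma) and A20-OE against A20-KO gave 0.19 (adjusted p = 0.24 in limma).

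CCL20 and TNF were not measurable in these cells. CCL20 (ENSG00000115009, chr2:227805739-227817564, plus strand) had 0, 4 and 0 reads in A20-WT, 1, 0 and 3 in libraries labelled A20-KO, against 2, 0 and 3 in A20-OE. TNF (ENSG00000232810, chr6:31575567-31578336, plus strand) had 2, 0 and 0 reads, 1, 0 and 0 reads, and 0, 2 and 2 reads in the same order. All values of TNF were at or under 3 reads, the limit that a count of 0 allows, and those of CCL20 were at or under it in all but 1 library. No fold change is given for either. HCT116 libraries thus held almost no mRNA of TNF, the best known inducer of the pathway.

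The receptors of these ligands were mostly those of LIF and TNF. Of 14 receptor and integrin genes 8 were tested and none was called in limma in any comparison, against 6.99%, 2.39% and 11.9% of all tested genes. In limma 1 had an adjusted p under 0.05 in the first comparison, 2 in the second and none in the third. Over all tested genes these shares were 22.3%, 8.97% and 31.1%. The 2 in A20-OE against A20-KO were TNFRSF1A (log2 fold change -0.49, adjusted p = 0.048 in limma) and IL18R1 (0.86, adjusted p = 0.05 in limma). TNFRSF1A, the main TNF receptor, had a mean of 22.1 FPKM over the 9 libraries, IL6ST (gp130) 4.41 FPKM and LIFR 2.27 FPKM. IL6ST was 5.69, 3.54 and 3.99 FPKM on average in A20-WT, libraries labelled A20-KO and A20-OE, with a log2 fold change of -0.65 for A20-KO against A20-WT (adjusted p = 0.044 in limma). Of the neutrophil chemokine receptors, CXCR1 had 1 to 17 reads and was among the tested genes, and CXCR2 had 1 to 6 reads, CXCR6, the receptor of CXCL16, had 1 to 5 reads, and CCR6 had none.

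Among 13 genes that process or release these proteins or control the decay of their mRNAs, 12 were tested. ZFP36, which encodes tristetraprolin, a protein that binds AU-rich elements and speeds the decay of cytokine mRNAs, rose from 8.42, 14.3 and 15.9 FPKM in A20-WT to 27, 29.3 and 33.4 FPKM in libraries labelled A20-KO, and stood at 31.7, 31.5 and 32.1 FPKM in A20-OE. The log2 fold change was 1.26 for A20-KO and 1.35 for A20-OE against A20-WT (adjusted p = 0.0034 and 0.0013 in limma), and 0.98 for A20-KO without A20-WT library 1. ZFP36 was the only one of the 12 called in the first comparison, where 6.99% of all tested genes were called. CASP4, an inflammatory caspase, rose from 1.4 ± 0.0632 FPKM (SD, n = 3) in A20-WT to 3.64 ± 0.368 in A20-OE (log2 fold change 1.32, adjusted p = 0.00011 in limma), with 2.74 ± 0.264 FPKM in libraries labelled A20-KO. CASP1, which encodes the caspase best known for cleaving the IL-18 precursor, had 0 to 3 reads. None of the 12 was called in limma from A20-KO to A20-OE, where 2.39% of all tested genes were. By adjusted p under 0.05 in limma 3 of the 12 passed there, against 8.97% of all tested genes. They were ADAM17, the sheddase that releases TNF, at 0.86, GSDMD at -0.72 and ELAVL1 at -0.36 on the log2 scale. ADAM10, the sheddase of CXCL16, was 9.42, 10.7 and 14.7 FPKM on average in A20-WT, libraries labelled A20-KO and A20-OE. Its log2 fold change for A20-OE against A20-WT was 0.64 (adjusted p = 0.01 in limma). By adjusted p, 2 of the 12 were higher and 3 lower in A20-KO against A20-WT, where 22.3% of all tested genes passed. In A20-OE against A20-WT 6 were higher and 3 lower, where 31.1% passed. CASP4 and ZFP36 were the 2 called there, against 11.9% of all tested genes.

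Most other chemokine genes had few or no reads. Of 26 listed, 12 had no read in any library and 4 passed the filter. CCL26, which encodes eotaxin-3, had 14, 27 and 18 reads in A20-WT, 43, 33 and 45 in libraries labelled A20-KO, against 89, 56 and 75 in A20-OE, with no overlap between groups. It rose by a log2 fold change of 1.06 in A20-KO (adjusted p = 0.02 in limma) and 1.90 in A20-OE (adjusted p = 0.00075 in limma) against A20-WT. The first of these calls was lost without any 1 of A20-WT library 1, A20-KO library 1 and A20-KO library 3 (adjusted p = 0.055, 0.065 and 0.069 in limma). CXCL5, another neutrophil chemokine, and CX3CL1 were named after their values were seen. CXCL5 had 0, 2 and 0 reads in A20-WT, 9, 22 and 9 in A20-OE and none in libraries labelled A20-KO. Its mean in A20-OE, 0.218 FPKM, was 4.4-fold the 0.0491 FPKM that 3 reads per library would give in A20-KO. A20-OE library 2 raised this mean, at 0.349 FPKM beside 0.152 and 0.154 FPKM in A20-OE libraries 1 and 3. CX3CL1 had 8, 10 and 1 reads in A20-OE and none elsewhere. CXCL5 was thus higher in the group in which CXCL1 and CXCL8 were lower.

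Of 27 other epithelial cytokine genes 17 were tested, and 2 were called higher and 1 lower in libraries labelled A20-KO against A20-WT, where 4.91% of all tested genes were called higher and 2.08% lower. None was called in limma in A20-OE against A20-KO, where 2.39% of all tested genes were called. In A20-OE against A20-WT 3 were called higher, where 7.68% of all tested genes were. IL1RN, which encodes the antagonist of the IL-1 receptor, rose from 0.279 ± 0.0825 FPKM (SD, n = 3) in A20-WT to 0.833 ± 0.0481 in libraries labelled A20-KO and 1.23 ± 0.252 in A20-OE (log2 fold changes 1.32 and 1.81, adjusted p = 0.0045 and 0.00051 in limma). IL11, of the same cytokine family as LIF, rose from 0.67 ± 0.0734 to 1.72 ± 0.159 and 1.96 ± 0.268 FPKM (log2 fold changes 1.24 and 1.41, adjusted p = 0.001 and 0.00023 in limma). From A20-KO to A20-OE its log2 fold change was 0.17 (adjusted p = 0.53 in limma), beside -0.63 for LIF, and the difference between these was not tested. TGFB1, which encodes an immunosuppressive cytokine, had 34.6 ± 9.17 FPKM in A20-WT, 59.8 ± 6.06 in libraries labelled A20-KO and 80 ± 9.93 in A20-OE, and was called in A20-OE against A20-WT (log2 fold change 1.23, adjusted p = 0.0011 in limma), and in A20-KO against A20-WT only without A20-WT library 3 (1.02, from 0.82). TGFB2 had 40, 31 and 19 reads in A20-WT, 2, 9 and 3 in libraries labelled A20-KO, against 8, 3 and 12 in A20-OE, and its call in A20-KO was lost in 10 of the alternative fits, among them those without any 1 of the A20-KO or A20-OE libraries. IL6 had 0 to 5 reads and IL1B 0 to 3.

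Of 22 other NF-kB target genes, 21 were tested, and 2 were called higher and none lower in libraries labelled A20-KO against A20-WT, none in A20-OE against A20-KO, and 4 higher and 1 lower in A20-OE against A20-WT (limma). By adjusted p alone the counts were 7 higher and 2 lower, 2 higher and 1 lower, and 9 higher and 4 lower. Over all tested genes 6.99%, 2.39% and 11.9% were called and 22.3%, 8.97% and 31.1% passed by adjusted p in the same order. The median log2 fold change of the 21 was 0.27, -0.15 and 0.30 in the 3 comparisons, beside -0.01, 0.01 and 0.03 over all tested genes. NFKBIA, which encodes the NF-kB inhibitor IkB-alpha and is an early target of the pathway, had 402, 532 and 634 reads in A20-WT, 1047, 989 and 1010 in libraries labelled A20-KO, against 1120, 1077 and 1288 in A20-OE. The libraries of A20-WT were below all others. Its log2 fold change was 1.03 in A20-KO and 1.24 in A20-OE against A20-WT (adjusted p = 0.0027 and 0.00055 in limma), and the first was 0.85 without A20-WT library 1. BCL3, a nuclear relative of IkB, rose from 4.65 ± 1.16 FPKM (SD, n = 3) in A20-WT to 11.5 ± 1.45 in libraries labelled A20-KO and 10.2 ± 0.864 in A20-OE. MAP3K8, a kinase of the same pathway, had 1.06 ± 0.138, 1.76 ± 0.104 and 2.72 ± 0.189 FPKM, and BIRC3, which encodes an inhibitor of apoptosis, 0.614 ± 0.188, 1 ± 0.261 and 1.37 ± 0.0588 FPKM, both called in A20-OE against A20-WT. In that comparison the log2 fold change of BCL3 was 0.98 without A20-WT library 1 and that of BIRC3 was 0.89 without A20-WT library 3, both under the fold threshold. NFKB1, which encodes the p105 precursor of an NF-kB subunit, was the 1 called lower in A20-OE against A20-WT. It went from 7.48 ± 0.303 FPKM in A20-WT to 5.17 ± 0.523 in libraries labelled A20-KO and 3.39 ± 0.222 in A20-OE (log2 fold change of A20-OE -1.12, adjusted p = 0.00011 in limma). By adjusted p alone NFKBIE, SOD2 and CD83 were also lower there (log2 fold changes -0.82, -0.81 and -0.45, adjusted p = 0.01, 0.0006 and 0.05 in limma). VCAM1, an adhesion molecule like ICAM1, had no read in any library.

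**Figure D3:**
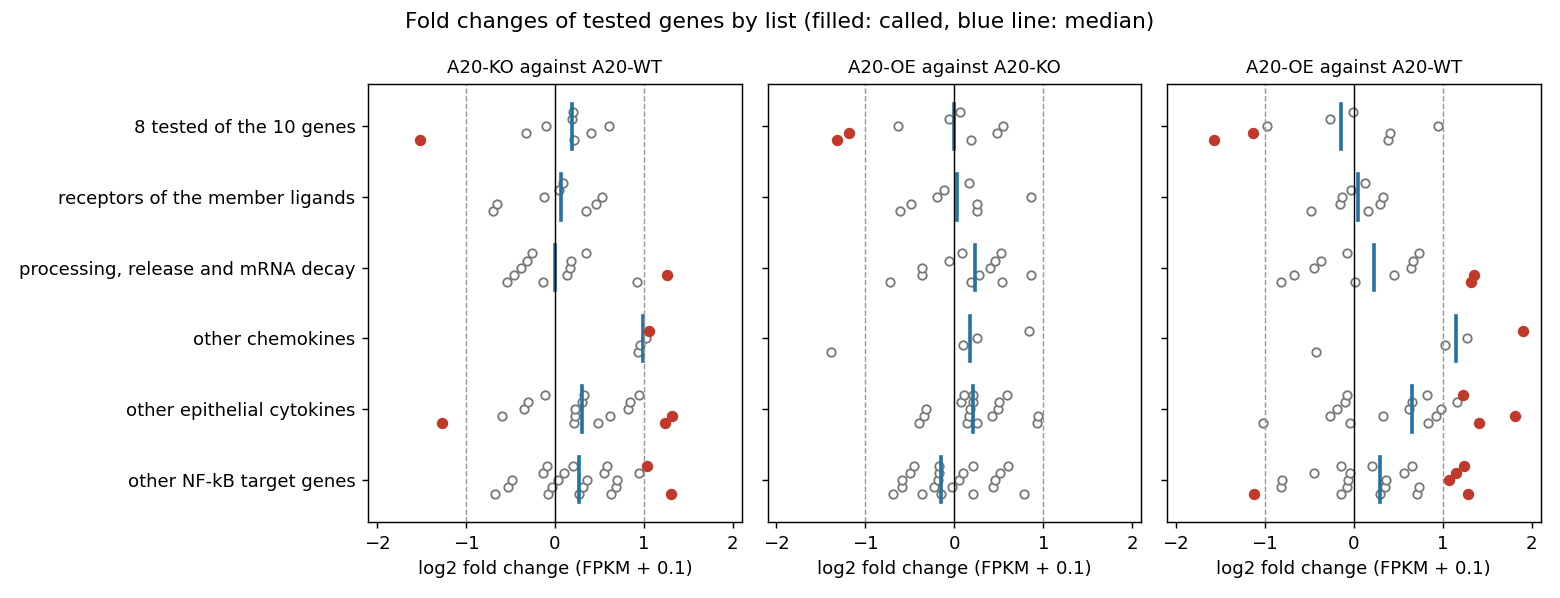
Log2 fold changes of the tested genes of each list on the log2(FPKM + 0.1) scale (horizontal axis), 1 row per list and 1 panel per comparison, with points for genes, filled red points for called genes, blue lines for the median of the list and dashed lines at the fold threshold. From A20-KO to A20-OE the called points are CXCL8 and CXCL1 only, and the medians of the other NF-kB target genes are 0.27, -0.15 and 0.30.

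The cells had the markers of an epithelial line. EPCAM, KRT8, KRT18, KRT19, CDH1 and CLDN7 were all tested, with means over the 9 libraries of 117, 483, 332, 738, 22 and 66.8 FPKM. KRT19 was higher in both other groups than in A20-WT, at 434 ± 83.7 FPKM (SD, n = 3) in A20-WT, 878 ± 147 in libraries labelled A20-KO and 903 ± 131 in A20-OE (log2 fold changes 1.02 and 1.06, adjusted p = 0.0062 and 0.0031 in limma), with both under the fold threshold without A20-WT library 1 (0.93 and 0.97), the first also without A20-WT library 2 (0.96) or A20-KO library 3 (0.89), and the second also without A20-OE library 3 (0.96). The summed level of the 6 epithelial markers was 1122 to 1525 FPKM in A20-WT. It was 1755 to 2316 FPKM in libraries labelled A20-KO and 1755 to 2309 in A20-OE. The sum, most of it KRT8, KRT18 and KRT19, was thus higher in the groups in which ICAM1 was lower. EPCAM instead had lower means there, at 130, 117 and 105 FPKM in A20-WT, libraries labelled A20-KO and A20-OE. Its log2 fold changes against A20-WT were -0.15 and -0.30 (adjusted p = 0.34 and 0.053 in limma). The part of these differences in the ICAM1 result was not tested. Of 13 immune and stromal markers 4 were tested. Of the defining leukocyte markers PTPRC had 0 to 5 reads, CD3D none, CD3E 0 to 3 and MS4A1 0 to 1, so that these were at or near 0. The list's summed level was 5.37 to 6.43 FPKM in A20-WT, 13.2 to 15.9 in libraries labelled A20-KO and 11.7 to 13.1 in A20-OE, nearly all of it COL1A1, which rose from 5.32 ± 0.668 FPKM in A20-WT to 13.3 ± 1.41 and 11.7 ± 0.653 FPKM, while COL1A2, the other chain of the same collagen in fibroblasts, had 0 to 1 reads. CSF1R had 8 to 9 reads in A20-WT, 12 to 13 in libraries labelled A20-KO and 28 to 36 in A20-OE, a call against A20-WT (log2 fold change 1.10, adjusted p = 0.022 in limma) that was lost without any 1 of A20-WT libraries 2 and 3 and the A20-OE libraries.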

How the data were processed

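RNA-seq of 9 libraries of HCT116 cells was analysed, 3 each of A20-WT, A20-KO and A20-OE by the labels. Per the labels, the authors used HISAT2 2.0.5 and featureCounts 1.5.0-p3, with strand setting and genome build not given in the sources used here. They deposited FPKM per gene with gene lengths, and the coordinates match GENCODE 29 on GRCh38 for 99.9% of genes. FPKM times length was a whole multiple of 1 read for 100% of values above 0, which gave the reads per gene. The tolerance was 0.01 reads for low counts and grew in proportion to the count for higher ones, where this check is weak. These totals were 0.950 to 1.066 of the depth the FPKM imply, so that the deposited values carry a further scaling. Genes with a mean of at least 0.1 FPKM over all libraries (21636) were tested on log2(FPKM + 0.1) in limma 3.58.1 (R 4.3.3), with a trend of the variance, the 3 groups in 1 fit and Benjamini-Hochberg adjustment over all of them. The called threshold is an adjusted p under 0.05 and a log2 fold change above 1 in either direction. An exact two-sided permutation test of 3 libraries against 3 cannot go below p = 0.1 and was not used for calls. The fit was tested on simulated data. The 10 genes, the gene lists and the tests were chosen with earlier results of these data known.

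The genes named are the 10 members, TNFAIP3, NFKBIA, of each list the called genes (at most the 6 with the largest fold change), the epithelial markers, and the 5 genes most like the member that differed most between groups. CXCL5, CX3CL1 and the other genes named as examples of levels were chosen after their values were seen. Where 2 identifiers share a symbol (SOD2), that with more reads was used. Promoters came from RefSeq on GRCh38.p14, which matched 7 of the 10 genes. Alternatives were no filter or a filter at 1 FPKM, pseudocounts of 1 or 0.01, median-of-ratios scaling, the replicate block, no trend, only the groups compared, no fold threshold, limma-voom on recovered reads (at least 10 in 3 libraries), and each library left out.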

Additional observations from a re-analysis of the deposited data

How the results depend on the processing

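No result changed its direction while called. Of the fold changes of the 8 tested members under the alternatives, 423 of 447 kept their side of the threshold. Most of these were not called in the main fit, so that this count says little about the calls. CXCL1 lost its call in A20-OE against A20-KO in 8 of 18 alternatives. Each call of CXCL8 and ICAM1 was lost in 1 of 19. With a pseudocount of 1, which shrinks low genes, 0 members were called in each comparison, and 472, 155 and 976 of all genes in A20-KO against A20-WT, A20-OE against A20-KO and A20-OE against A20-WT. With a filter at 1 FPKM these were 931, 289 and 1555 of all genes, and with no fold threshold 4816, 1940 and 6735. With no fold threshold 2 members passed in the first comparison and 5 in the third. In A20-OE against A20-KO 1 member, CXCL8, was called with no filter, with the filter at 1 FPKM (which removes CXCL1 from the test) and with no trend. Leaving out 1 library gave 1 to 2 members and 256 to 621 of all genes in A20-OE against A20-KO, and 2 to 4 members in A20-OE against A20-WT, where the fit without A20-WT library 1 called CXCL1, CXCL8, ICAM1 and IL18. Limma-voom on the recovered reads called 1, 2 and 3 members and 1805, 653 and 2839 of all genes. Over all tested genes, deviations of libraries of the same number correlated weakly (-0.03 to 0.12 over 9 pairs, -0.13 to 0.07 over 18 pairs of different number). The ratio of total reads to the implied depth was highest in library 3 of every group (0.998 in A20-WT, 1.022 in A20-KO and 1.066 in A20-OE). Whether the numbers pair the libraries is therefore not settled by these values. With the replicate block 1, 2 and 2 members and 1557, 542 and 2573 of all genes were called. The causes of these shifts were not tested further. Depth limits CXCL1, CXCL2, CXCL3, CCL20 and TNF, with at most 50 reads a library.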
